A study of Rattus norvegicus with 241 samples.

Results

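The CD45+ leukocytes of the mammary glands of young vehicle-treated ACI rats were followed over 2 weeks by bulk RNA-seq. Libraries were taken by their labels alone (young ACI rat, CD45 sort, control treatment), which gave 9 of the 241 samples of the series, from 3 rats each at day 0, day 7 and day 14. Day 0 is the day on which dosing stopped. All 9 rats were peripubertal virgin females of the inbred ACI strain that had received the drug carrier alone by oral gavage for 10 days, and no rat was sampled on more than 1 day. A parallel arm of 9 rats received 75 mg/kg of LY2157299 (TGFBRi, an inhibitor of the kinase of the TGFβ type I receptor) over the same days and is used below for the spread that its libraries share with the vehicle libraries in the fit, for its own change over the same days and for a direct test of the difference in time course. The series as a whole asks whether such short treatment lowers mammary tumor risk. The vehicle rats show what the leukocyte fraction of a growing gland without the drug does over the same days, against which any lasting effect of the drug is read.

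The pubertal mammary gland grows from terminal end buds into the fat pad, and leukocytes take part in this. Macrophages surround the growing buds and remodel collagen, mast cells and eosinophils are found near them, and T and B lymphocytes accumulate in and around the ducts as the gland matures. CD45, the product of Ptprc, is a surface phosphatase carried by almost all leukocytes and is used to sort them as 1 fraction. A bulk library of that fraction is a weighted sum over all these classes, so that fewer cells of a type and less RNA per cell cannot be told apart in any value below. Time after dosing, age and the day of collection are the same variable here and cannot be told apart either.

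Values are normalized read counts, the reads of a gene divided by a size factor of the library, and each library held 18582241 to 27629600 reads assigned to genes (median 22631515). As a sum, the leukocyte markers were high in every library. Their 13 genes summed to 9021 to 11744 reads per 1000000 (RPM) in the CD45+ sort of the 9 rats, against 168 to 371 in the basal and 74 to 225 in the luminal epithelial cells sorted from the same rats. PTPRC itself was uneven, at 416, 126 and 784 RPM in the day 0 CD45+ libraries, which hold its lowest and highest value. It reached 7.14 in the basal and 2.71 in the luminal sort. The fraction was not free of stroma. Fibroblast genes (19 genes, collagens included) summed to 15033 to 49398 RPM in the CD45+ libraries and to 4143 to 16037 in the basal sort, whose table held 18 of these genes, and basal keratins and muscle genes of the myoepithelium (13 genes) to 252 to 1453 against 22450 to 29015. Luminal epithelial genes (19 genes) summed to 939 to 2693 RPM in the CD45+ and 18807 to 38105 in the luminal libraries. The CD45+ sums were highest in day 0 rat 1 (2693) and day 7 rat 3 (2635). The vehicle day 0 rats were the least alike. Day 0 rat 1 correlated with the other 2 day 0 rats at r = 0.786 and 0.793 over 9967 genes, against 0.874 between those 2 and 0.878 to 0.950 among rats of day 7 or of day 14. Genes above 0 numbered 13373 in day 0 rat 1 and 14111 in day 7 rat 3, and 11646 to 12620 in the other 7 libraries. Many results are therefore also given without day 0 rat 1, a rat singled out after its values were seen. Among the day 0 rats its sums were highest for B cell, T cell, naive lymphocyte and regulatory T cell genes and lowest for macrophage genes. Leaving it out favors higher calls in the former lists and lower calls in the latter, so that such calls are not support for a change. The list results are not given without any other rat, and only the counts over all genes show how far each rat matters.

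Between day 0 and day 14, 19 of 14761 genes passed limma at a Benjamini-Hochberg adjusted p up to 0.05, 11 of them higher at day 14 (0.0745% of genes tested) and 8 lower (0.0542%). The genes that rose were led by the lectin SIGLEC10, and the genes that fell included the chemokine CCL5 and the early response factors FOSB, FOSL2 and KLF4. The median change of all genes was -0.04 on the log2 scale, and 2115 genes had an unadjusted p below 0.05. Of the 19 genes, edgeR on the recovered reads called 6, 3 in each direction (0.0203% each), and DESeq2, which called 174 genes higher (1.18%) and 296 lower (2.01%), called 18. Called, in what follows, means passing limma in the fit of all 18 libraries unless another tool or a rat left out is named. Among the gene lists edgeR called FOSB alone for these days. TMM scaling in place of the deposited scaling gave 22 higher and 10 lower. With the spread estimated from the 9 vehicle libraries alone no gene was called (1550 at an unadjusted p below 0.05), so that the calls lean on the spread shared with the 9 TGFBRi libraries. Without day 0 rat 1 the count was 1163 (684 higher, 4.68% of 14624 genes, and 479 lower, 3.28%), all 19 among them, whereas it was 4 without day 0 rat 2, 37 without day 0 rat 3, and 3, 5 and 1 without day 14 rat 1, 2 and 3. Without a day 7 rat, which enters this comparison only through the shared spread, it was 2 to 13, and without the TGFBRi library that is labelled day 7 but titled day 9 it was 5, all among the 19.

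Among the genes that rose, SIGLEC10, a sialic acid binding lectin that damps signaling in B cells and myeloid cells, stood at 407.2, 315.5 and 160.4 at day 0, at 390.8, 343.8 and 365.2 at day 7 and at 1651, 1577 and 2709 at day 14. Day 7 lay among the day 0 values and every day 14 rat lay far above both, a change of 2.80 ± 0.37 (SE, n = 3 rats per group) with a limma adjusted p of 0.00761. Here and below the SE is that of the fit, which shares the spread over all 18 libraries, and not of the compared rats alone. Where a group is more uneven than the others, as day 0 was for lymphocyte genes, the SE can understate its spread. TCTN1, a protein of the ciliary transition zone, took the same course, with 2522, 2218 and 1085 at day 0 and 6340, 4801 and 8765 at day 14 (1.82 ± 0.29, limma adjusted p = 0.0282). CYB561A3, a reductase of lysosomal membranes, went from 2322, 782.9 and 556.1 through 1384, 804.2 and 1836 to 5331, 5891 and 7683. TMBIM1 (2.16 ± 0.40) and the ganglioside synthase ST3GAL5 (1.34 ± 0.24) also passed, both with a limma adjusted p of 0.048. In all 5 genes day 7 overlapped with day 0 and every day 14 rat was above both.

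A second set had already separated from day 0 at day 7, although no single gene passed the test there. NUP35, a component of the nuclear pore, stood at 161.6, 188.1 and 150.7 at day 0, 378.4, 298.3 and 333.5 at day 7, then 500.1, 497.6 and 446.4 at day 14 (1.53 ± 0.26 from day 0 to day 14, limma adjusted p = 0.0334). BCCIP, which binds BRCA2 and the cell cycle inhibitor p21, went from 309.7, 305.0 and 377.3 through 686.2, 637.6 and 542.4 to 732.7, 741.7 and 777.8, a change of 1.19 ± 0.22 (limma adjusted p = 0.048). SOCS5, a suppressor of cytokine signaling, rose from 1083, 542.2 and 614.7 to 2274, 2363 and 2334. XKRX and the zinc finger factor ZFP217 were close to absent at day 0, with 0 to 6.5 and 0 to 29.6, and reached 108.1 to 186.9 and 222.0 to 359.5. The remaining gene that rose, CCPG1OS, is an antisense transcript with no read at day 0 and 8.7 to 25.7 at day 14. Reads were counted without regard to strand, so that its reads cannot be told apart from those of its partner.

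The genes that fell did so in 2 patterns. CCNO, cyclin O, an atypical cyclin known from multiciliated cells, stood at 108.6, 197.5 and 130.1 at day 0 and at 9.8, 58.8 and 156.4 at day 7, and no read of it was found in any day 14 rat. Against a floor of 3 reads per library this is at least 53-fold lower at day 14, and CCNO was the 1 gene still called whichever day 0 or day 14 rat was left out (limma adjusted p = 0.00115 with all rats). ART5, an ADP-ribosyltransferase of few reads, went from 16.0, 25.7 and 3.3 to 0 in all 6 later rats. The other genes were abundant and fell in part only. CCL5, a chemokine made by cytotoxic lymphocytes that attracts T cells and monocytes, went from 4155, 4673 and 8224 through 3049, 3893 and 2745 to 869.7, 2037 and 1098. The groups of day 0 and day 14 did not overlap, and the fall of 2.12 (SE 0.34) on the log2 scale had a limma adjusted p of 0.0282. CSRNP2, a nuclear protein, stood at 1643, 1811 and 1595 at day 0 and 760.3, 595.3 and 602.1 at day 14 (-1.37 ± 0.21, limma adjusted p = 0.0267), with day 7 between them at 1070 to 1520. RGCC, a regulator of the cell cycle induced by complement, went from 8696, 7664 and 6161 to 4663, 2280 and 2420 (-1.33 ± 0.25, limma adjusted p = 0.0492).

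Genes with the lowest p beyond the threshold are given as values. PRKD2, a kinase activated by antigen receptors, stood at 724.2, 285.1 and 206.0 at day 0, 460.4, 214.6 and 601.4 at day 7, then 2003, 2020 and 2427 at day 14, and BCL11A, a factor needed for lymphocyte development, at 90 to 149.3 at day 0 and 287.7, 379.0 and 453.3 at day 14 (limma adjusted p = 0.0548 for both). On the lower side stood FOXO3, a factor that promotes quiescence and apoptosis, at 2044, 3029 and 2802 against 1061, 891.9 and 1205 (limma adjusted p = 0.0533), and BCL2L11 (BIM), a death inducer of the BCL2 family, at 2556, 6348 and 4825 against 1248, 951.3 and 1355 (limma adjusted p = 0.0605). Both pairs separated all day 14 rats from all day 0 rats. Coagulation factor F5, which macrophages can make, stood at 112.3, 274.6 and 671.0 against 4.6, 14.4 and 48.4.

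**Figure D1:**
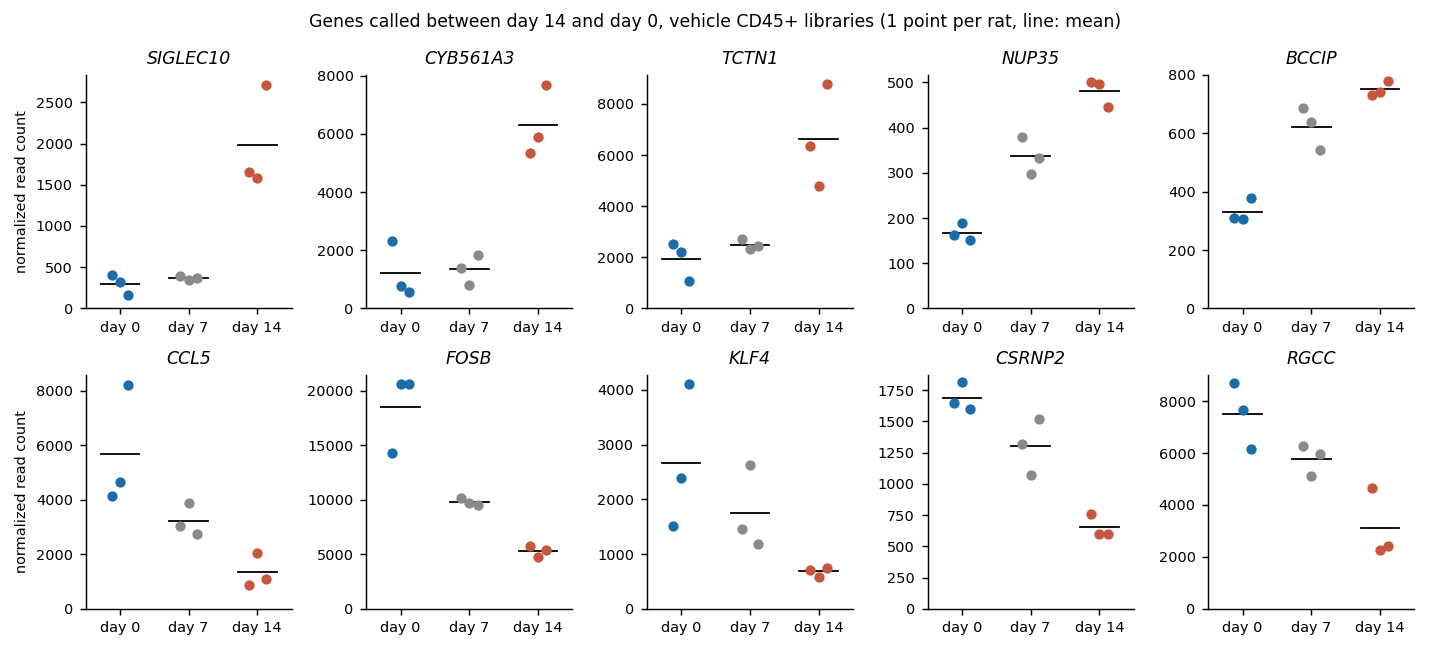
Normalized read count (vertical axis, from 0) of 10 genes called between day 14 and day 0, at each day (horizontal axis), with 1 point per vehicle rat and a line at the mean of 3 rats. SIGLEC10, CYB561A3 and TCTN1 stay near the day 0 level at day 7, NUP35 and BCCIP have left it by then, and the 5 genes of the lower row are below every day 0 rat at day 14.

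B cell genes had the largest median change of the 42 gene lists described in limma, with most of their values higher at day 14. In DESeq2 and edgeR the mast cell median was larger in size (-2.27 and -2.21). No B cell gene passed limma between day 14 and day 0, and DESeq2 called 2 higher, SPIB and CD72 (1.18% of all genes). Of the 17 B cell genes tested, 13 had all 3 day 14 rats above all 3 day 0 rats, against 6.69% of all genes, and none had them below (7.03% of all genes). Their median log2 change was 3.40 in limma, beside -0.04 over all genes, and 1.94 in DESeq2 and 2.01 in edgeR. CD79B, a signaling chain of the B cell receptor, stood at 9465, 348.2 and 232.0 at day 0, 4477, 734.7 and 4632 at day 7, then 11334, 18065 and 17967 at day 14. Day 0 rat 1 was thus far above the other day 0 rats yet below each day 14 rat, and the log2 change of 4.07 ± 1.04 (SE) had a limma adjusted p of 0.0953. CR2, the complement receptor of mature B cells, held 1049, 0 and 17.3 on day 0 against 1763, 2170 and 3051 on day 14. The lineage factor PAX5 overlapped between the days, with 122.1, 1.2 and 1.1 at day 0 against 138.8, 105.3 and 180.8 at day 14. The changes nearest 0 in the list were those of CD37 (7600, 6887 and 3904 against 8291, 7134 and 9036), CD22, BLNK (1842, 1323 and 1145 against 1917, 2535 and 3642) and CD72, at log2 changes of 0.46, 0.56, 0.89 and 0.89.

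Summed over the list, B cell genes gave 48961, 15572 and 11192 at day 0, 30936, 13606 and 33486 at day 7, then 67130, 74780 and 99786 at day 14. The day 14 rats were alike and highest, while day 0 and day 7 each held rats of high and of low level. The mean of these sums was 3.19-fold higher at day 14 than at day 0. The limma medians are differences of mean logs and give more weight to the day 0 rats of low level. Without day 0 rat 1, 14 of the 17 genes were called higher, against 4.68% of all genes (limma adjusted p of 4.4e-04 for CD79B), and the median was 4.67. That rat had the highest day 0 sum, so that leaving it out favors such calls, which are no further support for a rise. In the TGFBRi rats the median of the same genes over the same days was -0.04 and no gene was called. The difference between the arms was tested directly for each gene and none of the 17 passed, with a limma adjusted p of 0.2 for CD79B, whereas 12 of the 17 passed without day 0 rat 1 (2.09% of all genes were then higher in this test and 2% lower). MZB1, a chaperone of antibody secreting cells and marginal zone B cells, gave 249.2, 0 and 4.3 at day 0 against 432.1, 355.0 and 417.0 at day 14 (limma adjusted p = 0.0985). The plasma cell list had a median of -0.19 over 8 genes with none called by limma and 1 lower by DESeq2, and of -0.36 with 1 higher and 1 lower without day 0 rat 1.

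**Figure D2:**
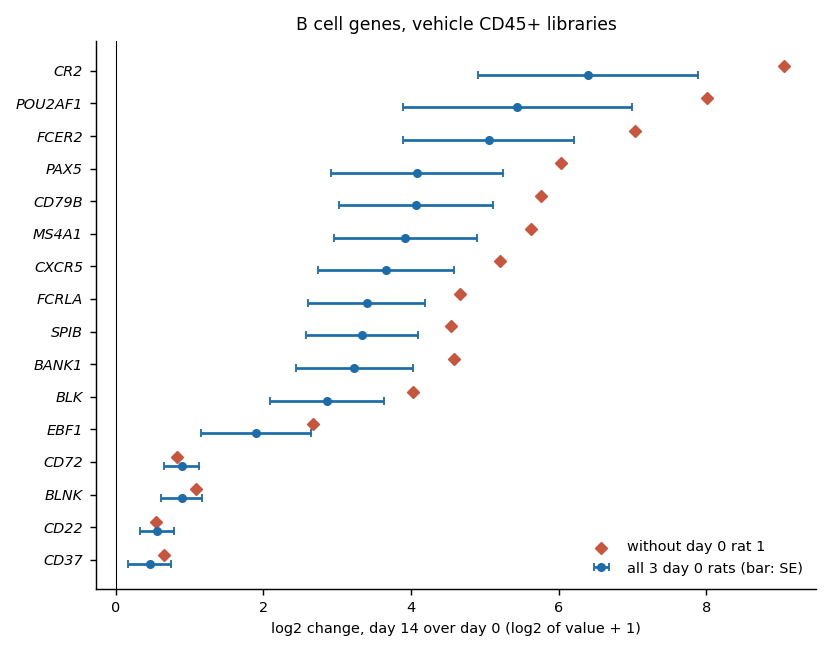
Log2 change from day 0 to day 14 (horizontal axis) of 16 of the 17 B cell genes tested (vertical axis), with all 3 day 0 rats (circles) and without day 0 rat 1 (diamonds). Bars give the SE of the fit over all 18 libraries, not of the compared rats alone. Every gene drawn is to the right of 0, CD37, CD22, CD72 and BLNK least, and leaving out day 0 rat 1 moves most of the others further to the right.

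T cell genes varied widely among rats of the same day. CD3E, a chain of the T cell receptor complex, stood at 14053, 510.6 and 756.7 at day 0, 7393, 872.8 and 7879 at day 7, then 10551, 8708 and 6810 at day 14. Day 0 rat 1 was the highest of all 9 rats, and day 7 rat 2 was close to the other 2 day 0 rats. The 21 T cell genes had a median of 1.44 (0.57 in DESeq2 and 0.64 in edgeR), none was called by any of the 3 tools, and 1 had all day 14 rats above all day 0 rats (6.69% of all genes). Against day 7, 5 had all day 14 rats above (9.52% of all genes), again with none called. Without day 0 rat 1, a fit that called 4.68% of all genes higher, the median from day 0 to day 14 was 2.54 and 9 were called higher. Homing and quiescence genes of naive and central memory lymphocytes followed the same rats. CCR7, which guides lymphocytes into lymph nodes, stood at 48763, 2676 and 1810 at day 0, 30212, 8654 and 52606 at day 7, then 33901, 18659 and 29382 at day 14, and 6 of the 7 genes of this list were called higher without day 0 rat 1, but none with it by any of the 3 tools, with a median of 2.02 (0.56 in DESeq2) and of 3.36 without that rat. Regulatory T cell and checkpoint genes (11 genes) gave a median of 1.70 (0.67 in DESeq2 and 0.75 in edgeR) with 0 called by any of the 3 tools, and 2.58 with 6 called without day 0 rat 1. The ribosomal protein genes, which are high in resting lymphocytes, moved with these rats too, with 778704, 328172 and 236687 at day 0 and 379547 to 486918 at day 14. Whether the glands of day 0 rat 1 carried more lymphoid tissue, such as a lymph node, was not tested.

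Effector genes of cytotoxic T and natural killer cells had a negative median. Of 18 genes, 5 had all day 14 rats below all day 0 rats (GZMK, GZMM, NKG7, CCL5 and XCL1), against 7.03% of all genes, and none had them above (6.69% of all genes). The list median was -1.15, but CCL5 was the 1 gene called (0.0542% of all genes were called lower). DESeq2 called 7 lower, against 2.01% of all genes. GZMK, a granzyme of effector memory cells, stood at 619.4, 933.6 and 2030 at day 0, 845.0, 1306 and 667.0 at day 7, then 311.6, 344.5 and 244.8 at day 14 (limma adjusted p = 0.0764). XCL1, a chemokine that attracts cross-presenting dendritic cells, was even across rats, with 1007, 1147 and 977.8 at day 0 and 363.1, 568.5 and 426.5 at day 14 (limma adjusted p = 0.0794). The pore-forming protein PRF1 and the receptor KLRD1 showed no such shift, with 1720, 1119 and 1807 against 1810, 1969 and 1331 and with 681.1, 433.5 and 1042 against 790.6, 815.4 and 526.9. Summed over the list the 3 day 0 rats gave 23835 to 29911 and the 3 day 14 rats 12571 to 17228. Without day 0 rat 1, 9 of the 18 genes were called lower, against 3.28% of all genes, and the median was -1.51.

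Macrophage genes varied most among the day 0 rats, in the opposite sense to lymphocyte genes. Their 25 genes summed to 128390, 839541 and 440117 at day 0, 216845, 426020 and 145433 at day 7, then 246258, 202634 and 178083 at day 14. The low value at day 0 was that of rat 1. In RPM these 25 genes summed to 5600 to 28830 in the CD45+ sort and to 8177 to 36555 in the basal sort of the same rats. The sum is thus not particular to the leukocyte fraction. CSF1R, the receptor for the macrophage growth factor, stood at 4897, 48728 and 27655 and then at 15867, 7349 and 9633 at day 14. Unlike the sum, CSF1R was nearly confined to the CD45+ sort, at 214 to 1673 RPM against 0.105 to 3.15 in the basal and 0 to 5.11 in the luminal sort. No other member of the list was compared singly between the sorts. No gene was called by limma and the median was -0.51. DESeq2 called 2 lower, LYZ2 among them, at a median of -1.05 (2.01% of all genes were called lower). Without day 0 rat 1 the median was -1.38 and 2 genes were called lower, when 3.28% of all genes were called lower and 4.68% higher. LYZ2, a lysozyme, was the 1 gene of the list whose groups did not overlap (7.03% of all genes were lower in this way), with 46923, 323302 and 216693 against 46794, 44715 and 39197 (limma adjusted p = 0.233), the lowest day 0 rat just above the highest day 14 rat. Monocyte (-0.54, 9 genes), dendritic cell (-0.51, 15), neutrophil (-0.46, 24) and MHC class II genes (-0.46, 12) gave the medians in brackets with no gene called by limma in any of them, and DESeq2 called 1 monocyte and 1 dendritic cell gene lower. Leaving out day 0 rat 1, these medians were -1.20, -0.69, -1.04 and -0.88, and the calls were 1 higher and 1 lower, 2 lower, 1 lower and 2 higher in the same order.

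Mast cell genes had a negative median and were uneven at day 0. Over 16 genes the sum was 1782, 5086 and 22643 at day 0, 1512, 5452 and 1541 at day 7, then 857, 1225 and 1788 at day 14, so that rat 3 of day 0 carried most of the signal and rat 1 lay within the range of day 14. CPA3, the carboxypeptidase of mast cell granules, went from 145.6, 979.2 and 8427 at day 0 to 182.9, 44 and 231.9 at day 14 without separating the groups. The list median was -2.20 with no gene called by limma and 4 called lower by DESeq2 (CPA3, CMA1, TPSB2 and KIT), against 2.01% of all genes. The groups of 3 genes did not overlap (CMA1, KIT and MRGPRX2, all lower, against 7.03% of all genes). The median was -2.63 and 5 genes were called lower without day 0 rat 1, against 3.28% of all genes. KIT, the stem cell factor receptor, was the most even of these, with 440.5, 373.9 and 577.8 at day 0 and 103.9, 165.6 and 151.4 at day 14 (limma adjusted p = 0.0926). KIT is also a member of the luminal epithelial list, and the part of luminal cells in its values was not tested.

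**Figure D3:**
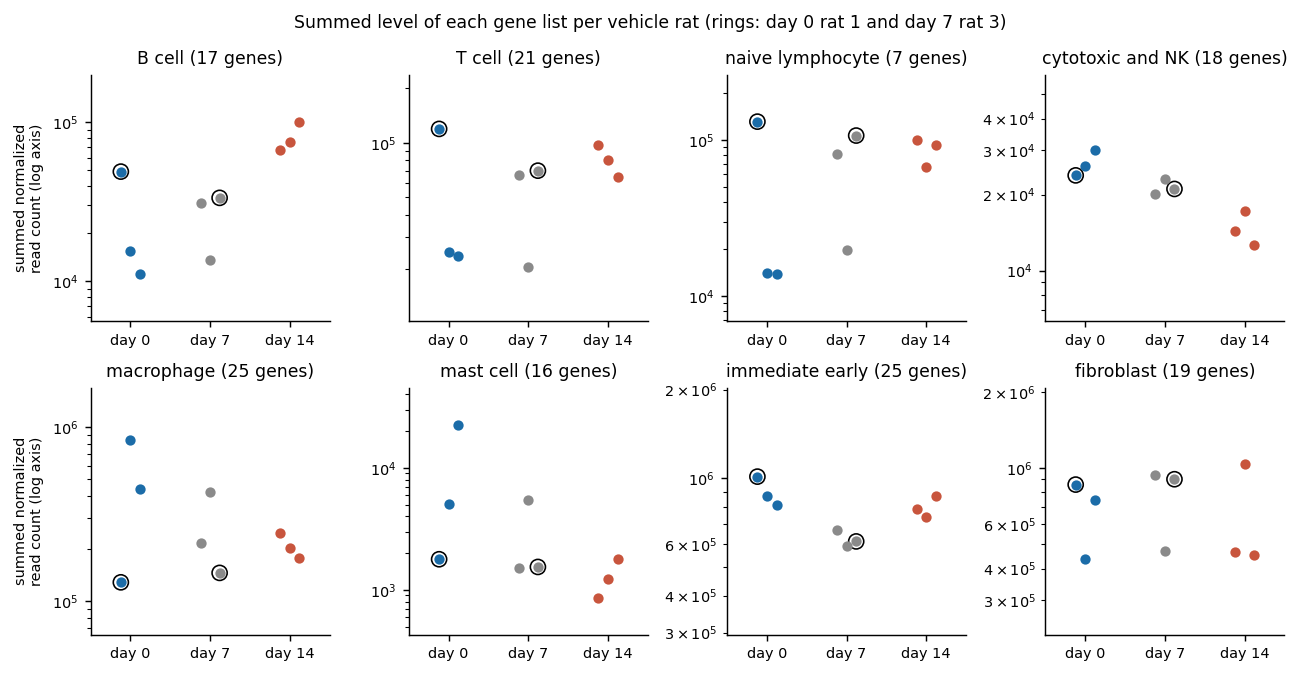
Summed normalized read count (vertical axis, log scale) of 8 gene lists at each day (horizontal axis), 1 point per vehicle rat, with rings on day 0 rat 1 and day 7 rat 3, the libraries with the most genes detected. Both ringed rats are high in T cell and naive lymphocyte genes and low in macrophage genes, and B cell genes are highest in the 3 day 14 rats.

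Immediate early genes, which encode transcription factors and regulators induced within minutes of a stimulus, were in part lower at day 14. Of the 25 genes, 3 were called, all lower (FOSB, FOSL2 and KLF4, against 0.0542% of all genes), and DESeq2 called 6 lower (2.01%). In 9 all day 14 rats were below all day 0 rats (7.03% of all genes) and in 1, EGR3, above (6.69%). Leaving out day 0 rat 1 gave 7 called lower (3.28% of all genes, with 4.68% higher) and a median of -0.65. FOSB stood at 14345, 20683 and 20622 at day 0, 10147, 9726 and 9531 at day 7, then 5754, 4749 and 5365 at day 14. The 3 days did not overlap, and the fall from day 0 to day 14 was 1.79 on the log2 scale (SE 0.27, limma adjusted p = 0.0239), of which 0.90 came by day 7. FOSL2, another partner of JUN proteins, went from 2132, 4737 and 3108 to 1340, 1141 and 1148, and the zinc finger factor KLF4 from 1513, 2390 and 4098 to 707.0, 586.6 and 751.8. The most abundant members did not follow. FOS dipped at day 7 only, with 95993, 70878 and 85064, then 52311, 40186 and 45998, then 72038, 67514 and 75626, and JUN and JUNB overlapped between day 0 and day 14. The list median was -0.50 at day 14 and -0.56 at day 7. At day 7 limma called none and DESeq2 called 2 lower (0.108% of all genes). Of the list, 10 genes then lay below all day 0 rats, against 3.04% of all genes below and 4.3% above. Heat shock genes (15 genes, median -0.37) and glucocorticoid response genes (15, -0.56) held no gene called by limma, and 1 and 3 called lower by DESeq2. Leaving out day 0 rat 1 gave a median of -0.35 with 1 higher and 2 lower for the former and of -0.76 with 4 lower for the latter. ZBTB16, a zinc finger factor of innate-like lymphocytes that glucocorticoids induce, had the lowest value of the latter, with 79, 220.8 and 423.9 at day 0 and 41.4, 21.1 and 4.3 at day 14 (limma adjusted p = 0.0806).

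The circadian clock runs on the activators CLOCK and ARNTL (BMAL1), which drive their own repressors of the PER, CRY and NR1D families through E-box sequences, and the output factor DBP acts through D-boxes. Of 15 clock genes none passed limma and DESeq2 called 6 lower (PER2, DBP, CRY2, NR1D1, BHLHE40 and NFIL3), against 2.01% of all genes. Of the list, 6 had all day 14 rats below all day 0 rats (7.03% of all genes) and 1, NPAS2, above (6.69%), and the median was -0.93. PER2 stood at 1315, 2737 and 1476 at day 0, 610.4, 771.2 and 902.1 at day 7, then 478.0, 411.5 and 685.2 at day 14 (-1.77 ± 0.34, limma adjusted p = 0.0548). DBP reached its low level already at day 7, with 1193, 1483 and 882.4, then 467.6, 329.5 and 301.8, then 414.6, 357.9 and 403.2 (-1.57 ± 0.31, limma adjusted p = 0.0548). NR1D1, CRY2, BHLHE40 and CIART were the others, while PER1, PER3, TEF and ARNTL overlapped. Of the 15, 6 were called lower without day 0 rat 1, against 3.28% of all genes, and the median was then -1.15. The hour at which the glands were taken is not given in the sources used here, and its part in these values was not tested.

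The windows from 250 bases before to 50 bases after the start of the 6 lower clock genes, from RefSeq on GRCr8, are printed to show which of them hold the letters of these boxes. All 6 matched by symbol. Each was searched on both strands for the E-box CACGTG, which 6.42% of 33469 such windows hold, the E-prime box CACGTT (4.83%) and the D-box TTATGTAA (0.893%), and the matches, which do not overlap, are in capitals. CIART held 3 E-boxes, BHLHE40 1 and PER2 an E-prime box and a D-box, but no E-box. NR1D1 has a pair of annotated starts, 1 window with an E-box, shown here, and 1 with an E-prime box. CRY2 held an E-prime box and no E-box, and none of these letters occurred in the window of DBP. A match is a stretch of letters only and no binding was measured.
PER2, chr9:99496944-99497243, minus strand: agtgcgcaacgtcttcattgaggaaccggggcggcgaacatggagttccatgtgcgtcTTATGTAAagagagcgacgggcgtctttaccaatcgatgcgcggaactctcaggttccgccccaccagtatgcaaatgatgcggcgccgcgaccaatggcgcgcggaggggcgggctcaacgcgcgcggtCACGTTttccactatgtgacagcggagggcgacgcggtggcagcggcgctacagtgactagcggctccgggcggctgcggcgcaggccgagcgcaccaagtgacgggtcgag
CIART, chr2:186112197-186112496, minus strand: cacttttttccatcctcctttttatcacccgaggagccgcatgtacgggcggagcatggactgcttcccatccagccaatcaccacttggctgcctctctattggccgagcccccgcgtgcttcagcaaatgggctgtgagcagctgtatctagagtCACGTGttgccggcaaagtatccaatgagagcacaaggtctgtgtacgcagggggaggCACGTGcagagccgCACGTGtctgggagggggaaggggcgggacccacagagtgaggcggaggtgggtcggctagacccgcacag
BHLHE40, chr4:143174200-143174499, plus strand: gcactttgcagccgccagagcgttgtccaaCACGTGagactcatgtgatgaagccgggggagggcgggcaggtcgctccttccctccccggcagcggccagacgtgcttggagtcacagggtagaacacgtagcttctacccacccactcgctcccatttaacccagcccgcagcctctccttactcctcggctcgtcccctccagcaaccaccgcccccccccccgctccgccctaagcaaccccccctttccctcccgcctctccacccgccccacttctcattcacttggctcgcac
NR1D1, chr10:84229405-84229704, minus strand: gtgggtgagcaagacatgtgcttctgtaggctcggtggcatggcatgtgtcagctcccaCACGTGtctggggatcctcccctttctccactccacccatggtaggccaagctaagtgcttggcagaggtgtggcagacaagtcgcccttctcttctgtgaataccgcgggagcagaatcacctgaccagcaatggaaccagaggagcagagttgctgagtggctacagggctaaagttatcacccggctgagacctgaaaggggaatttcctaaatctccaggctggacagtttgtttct
CRY2, chr3:98860388-98860687, minus strand: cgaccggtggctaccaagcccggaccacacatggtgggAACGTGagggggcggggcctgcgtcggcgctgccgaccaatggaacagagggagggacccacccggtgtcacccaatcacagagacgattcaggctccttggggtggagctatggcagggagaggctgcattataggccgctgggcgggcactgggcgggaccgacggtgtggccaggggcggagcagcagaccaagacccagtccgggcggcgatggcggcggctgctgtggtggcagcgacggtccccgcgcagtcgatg
DBP, chr1:105312006-105312305, plus strand: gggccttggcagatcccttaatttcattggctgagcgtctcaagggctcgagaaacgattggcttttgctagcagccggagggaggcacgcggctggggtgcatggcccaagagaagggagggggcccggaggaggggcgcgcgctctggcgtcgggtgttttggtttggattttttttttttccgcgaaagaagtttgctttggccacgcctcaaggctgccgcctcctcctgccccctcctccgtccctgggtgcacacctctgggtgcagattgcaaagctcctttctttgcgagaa

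The basal and luminal cells sorted from the same 9 vehicle rats gave a second reading of these genes on other cells. In RPM, FOSB was 626, 710 and 883 at day 0 and 277, 226 and 258 at day 14 in the CD45+ sort, 2748, 1177 and 2369 against 203, 566 and 751 in the basal sort, and 4110, 2126 and 4026 against 407, 608 and 466 in the luminal sort. All 3 sorts thus had every day 14 rat below every day 0 rat, and KLF4, PER2, DBP, CSRNP2 and RGCC did so too. Of all genes with at least 10 reads, 17.1% did so in the basal and 13.5% in the luminal sort, while 5.23% and 11.8% had every day 14 rat above. Of the lower genes with the lowest p beyond the threshold, PER2, DBP and FOXO3 were below in all 3 sorts. EXOC8 overlapped in both epithelial sorts, IFFO2 and MIR24-2 in the basal and BCL2L11 in the luminal sort. F5 overlapped in the basal and was higher at day 14 in the luminal sort. Not every called gene that fell was below in all 3 sorts either. FOSL2 overlapped in the basal and the luminal sort, and CCL5, below 1 RPM in both, was higher at day 14 in the basal sort and overlapped in the luminal sort. Of the genes that rose, CYB561A3, SOCS5 and TMBIM1 had every day 14 rat above every day 0 rat in luminal cells as well, NUP35 had them below there and ST3GAL5 below in basal cells, and BCCIP, SIGLEC10, TCTN1, XKRX and ZFP217 overlapped in both. DBP in luminal cells was 69.4, 83.6 and 99.8 at day 0, 11.5, 11.4 and 12.8 at day 7, then 20.4, 7.5 and 16.9 at day 14. CCNO was lower in the basal sort too, at 10.1, 7.24 and 5.25 against 2.42, 1.48 and 2.37, and overlapped in the luminal sort, where it was below 1. The 3 sorts come from the same animals and are not independent rats. What the sorts share beside the animal, such as the digestion of the gland, was not tested.

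**Figure D4:**
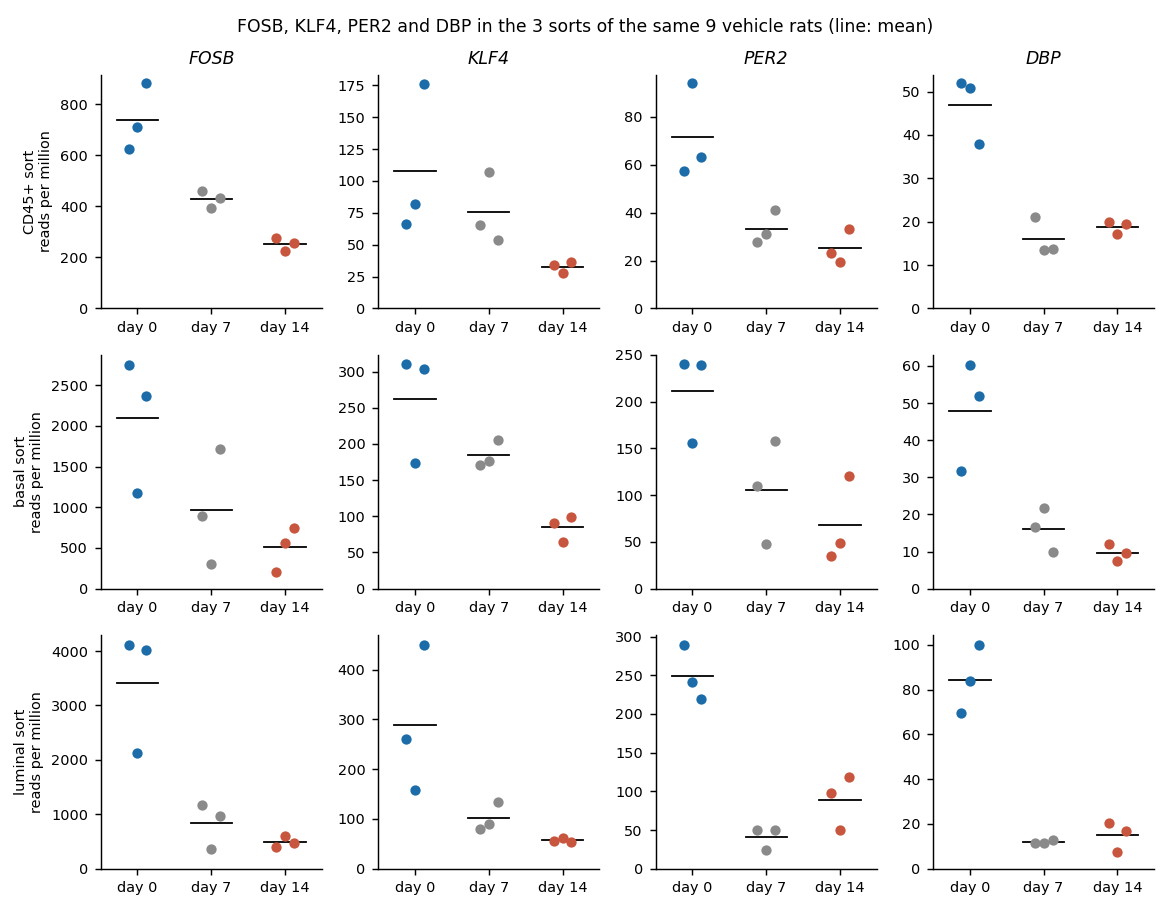
Reads per 1000000 (vertical axis, from 0) of FOSB, KLF4, PER2 and DBP (columns) in the CD45+, basal and luminal sorts (rows) at each day, 1 point per vehicle rat with a line at the mean of 3 rats. In all 12 panels the 3 day 14 rats are below the 3 day 0 rats.

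No gene of the TGFβ pathway, the target of the drug in the other arm, was called in vehicle rats by limma, edgeR or DESeq2. Over 22 ligand, receptor, SMAD and regulator genes the median change was 0.08, and their sum was 32500 to 39072 at day 0 and 32508 to 41697 at day 14. The type II receptor TGFBR2, with 2932, 1699 and 2618 against 3192, 3259 and 3611, and LRRC32, which holds latent TGFβ on the surface of regulatory T cells and platelets, with 1411, 1278 and 1155 against 1480, 2879 and 2046, did not overlap in the upward direction (2 of 22 genes, against 6.69% of all genes). The feedback inhibitor SMAD7 did not overlap in the downward direction (1 of 22, against 7.03%), at 2222, 2330 and 2369 against 2048, 1813 and 1660. TGFBR1 ranged from 346.7 to 2407 at day 0 and from 507.2 to 546.8 at day 14. The 14 TGFβ target genes had a median of 0.05 and type I interferon response genes (24 genes) of 0.19, with no gene called by limma in either list. DESeq2 called 2 of the target genes lower (2.01% of all genes), and without day 0 rat 1 limma called 3 of them lower (3.28%), at a median of 0.18.

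Split into its 2 steps, the 2 weeks held no called gene in the first and 7 in the second. For day 7 against day 0 limma called 0 genes, 861 had an unadjusted p below 0.05, edgeR called 0 and DESeq2 40 (24 higher, 0.163%, and 16 lower, 0.108%). Without day 0 rat 1 limma called 33 higher (0.226%) and 3 lower (0.0205%). The 33 included 9 of the 17 B cell genes, whose median in this step was 1.71 with all rats, with none called, and 3.12 without that rat. They also included 2 chemokine receptor genes, 1 naive lymphocyte gene and 1 plasma cell gene, and the 3 lower genes 1 mast cell gene. PHLDA3, a p53 target that restrains AKT, was among the genes with the lowest p, with 175.2, 234.9 and 144.2 at day 0, 629.1, 754.3 and 608.0 at day 7, then 242.7, 436.4 and 387.6 at day 14 (limma adjusted p = 0.14). In RPM, PHLDA3 was 6.18 to 30.7 in the CD45+ sort and far higher, 203 to 545, in the basal sort of the same rats. The genes beside PHLDA3 included LGALS7 of the basal epithelial list, with 120.3 to 437.0 and then 847.4 to 2202, and GLYCAM1 of the milk list, with 0 to 8.6 and then 358.7 to 4140. In day 7 rat 3, GLYCAM1 was 16.3 RPM in the CD45+ sort, 1.24 in the luminal sort and 2.36 in the basal sort. Basal epithelial genes as a list summed to 5767, 19911 and 6811 at day 0, 32081, 29195 and 16954 at day 7, then 11897, 15157 and 14041 at day 14, and the part of epithelial cells in the day 7 values was not tested. Among genes lower at day 7, the fructose transporter SLC2A5 stood at 88.8, 696.4 and 246.1 and then at 0, 29.4 and 12. No gene of either direction passed limma.

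Between day 7 and day 14, 6 genes rose (0.0406%) and CCNO fell (0.00677%) in limma, against 112 higher (0.759%) and 100 lower (0.677%) in DESeq2. Those that rose were SIGLEC10, CD22, CD38, PTPN6, TRAF3IP3 and ARRDC2. CD22, an inhibitory lectin of B cells, stood at 2448, 1992 and 1834 at day 7, then 4340, 5011 and 7285 at day 14 (limma adjusted p = 0.0413), and PTPN6 (SHP-1), the phosphatase that such inhibitory receptors recruit, at 2598, 2872 and 2760 and then 7805, 6941 and 10038 (1.57 ± 0.22, limma adjusted p = 0.0171). CD38, an ectoenzyme of activated lymphocytes, went from 355.2, 309.0 and 273.4 to 888.1, 1097 and 1036, and TRAF3IP3, an adaptor with a role in lymphocyte development, from 355.2, 245.8 and 329.1 to 1317, 1336 and 1196. In CD22, CD38, PTPN6 and TRAF3IP3 the day 7 rats were also below all day 0 rats. Of the 17 B cell genes, 16 had all day 14 rats above all day 7 rats (9.52% of all genes), with a median of 1.67 beside -0.16 over all genes. The comparisons with day 14 share the day 14 rats. On the lower side no further gene passed, and thioredoxin TXN1, at 11695, 12303 and 11221 and then 5859, 6230 and 4798, was near the threshold (limma adjusted p = 0.0756). Leaving out any 1 rat of day 7 or day 14 left 0 or 1 gene called, and leaving out day 0 rat 1, 2 or 3, which bears on the shared spread, gave 21, 8 and 10. Without the TGFBRi library titled day 9 it was 4.

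Mitosis genes had a positive median in the first step and a negative one in the second, with no call in limma or edgeR. DESeq2 called 2 of them lower in the second step (0.677% of all genes). The 50 genes of the G2/M phase had a median change of 0.57 from day 0 to day 7, of -0.67 from day 7 to day 14 and of 0.00 over the 2 weeks. Without day 0 rat 1 the last was -0.14 with 3 genes called higher (4.68% of all genes) and 1 lower (3.28%). In the second step 20 of them had all day 14 rats below all day 7 rats, against 10.4% of all genes. CDK1, the kinase that starts mitosis, stood at 56.8, 184.6 and 101.9 at day 0, 536.3, 407.0 and 192.4 at day 7, then 154.4, 212.5 and 126.3 at day 14. TOP2A stood at 112.3, 129.7 and 359.9, then 382.8, 543.2 and 272.3, then 218.8, 270.8 and 77, so that day 0 and day 7 overlapped. S phase genes (37 genes) had medians of 0.42 and -0.34 in the 2 steps, and over the 2 weeks limma called none, or 1 higher and 2 lower without day 0 rat 1. The basal epithelial genes above had their 2 highest sums at day 7 as well, and their part in these values was not tested.

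Milk protein genes were read in the CD45+ libraries too. CSN2, β-casein, stood at 10912, 139.7 and 2856 in the day 14 CD45+ libraries, or 524, 6.66 and 137 in RPM, and the luminal libraries of those rats held 15623, 352 and 5157 RPM in the same order of rats. GLYCAM1 had the same order of rats at day 14, with 30.7, 1.05 and 7.87 RPM in the CD45+ and 577, 28.4 and 170 in the luminal libraries, but not at day 7, when CD45+ rat 1 and luminal rat 2 were highest. The aminotransferase AADAT was higher at day 14 than at day 0 in both sorts without sharing an order of rats, at 2.89 to 4.58 RPM at day 0 and 109 to 128 at day 14 in luminal cells and at 0 to 0.325 and 6.05 to 8.24 in the CD45+ sort. The 12 milk genes had a median of 1.48 from day 0 to day 14 with no gene called by limma. DESeq2 called 3 higher (CSN2, WAP and GLYCAM1), against 1.18% of all genes. In 5 of the 12 all day 14 rats were above all day 0 rats (6.69% of all genes). Without day 0 rat 1 the median was 1.73 with 2 called higher (4.68% of all genes). Muscle genes (8 genes) had a median of -1.41 with no gene called by limma and 1 lower by DESeq2 (TNNI2, against 2.01% of all genes). In 4 of them all day 14 rats were below all day 0 rats (7.03% of all genes), while the sums of the list overlapped.

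The change over the 2 weeks was set against that of the TGFBRi arm in a single test of the difference, and 28 genes passed limma, 2 with a higher change in vehicle rats (0.0135%) and 26 with a lower one (0.176%). When day 0 rat 1 was left out 598 genes passed, 2 to 67 without 1 of the other vehicle rats and 12 without the TGFBRi library titled day 9. Of the gene lists, that of basal epithelium held 5 of the 26 (KRT5, KRT14, KRT15, KRT17 and CNN1, of 13 genes), the TGFβ pathway 2 (ENG and LTBP2, of 22) and endothelium 1 (ENG, of 18), and the fibroblast list none, which became 9, 4, 2 and 1 without day 0 rat 1 and 10, 6, 4 and 12 in DESeq2. Over all genes 2% were lower in this test without day 0 rat 1 and 4.08% in DESeq2. The median difference of the 19 fibroblast genes was -2.57, and 14 of them were called higher within the TGFBRi arm. None of the genes named here was called in vehicle rats, as with KRT14 at 1661, 4959 and 1362 at day 0 and 2900, 2731 and 3120 at day 14. In TGFBRi rats the mean of KRT14 rose from 58.57 to 2362 (log2 change of 5.37, limma adjusted p of 1.1e-04, and of 0.0259 for the difference). Basal epithelial genes summed to 11 to 24 RPM in the day 0 TGFBRi libraries, against 252 to 684 in the day 0 vehicle libraries, and fibroblast genes to 1317 to 8542 against 15033 to 37470. COL2A1 and LTBP2 had no read in the 3 day 0 TGFBRi libraries. With the epithelial level as a covariate no gene passed (1359 at an unadjusted p below 0.05). That covariate is the mean log2 level of the basal epithelial list, which itself holds 5 of the genes that passed. It also differed between the arms at day 0, so that this fit cannot decide the part of epithelial cells. Over the same days 877 genes were called within the TGFBRi arm, 586 higher (3.97%) and 291 lower (1.97%).

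The 2 genes with the opposite sign were BCCIP, which changed by 1.19 in vehicle rats and by -0.50 in TGFBRi rats, and the repair factor ERCC6, with 0.86 and -1.32 (limma adjusted p of 0.0421 for both differences). Of the 19 genes called between day 0 and day 14 in vehicle rats, BCCIP was the 1 gene that passed limma for the difference between the arms. edgeR (2 genes higher, 0.0135%, and 21 lower, 0.142%) passed CCNO as well, and DESeq2 (221 higher, 1.5%, and 602 lower, 4.08%) also CCNO, NUP35, ST3GAL5, XKRX, SIGLEC10, CCPG1OS, ZFP217 and CYB561A3. SIGLEC10 changed by 0.68 in TGFBRi rats, with a limma adjusted p of 0.0932 for the difference. FOSB, KLF4, CSRNP2 and RGCC fell in both arms, by 0.96, 1.26, 1.13 and 1.27 on the log2 scale in TGFBRi rats, with limma adjusted p-values of 0.0457, 0.0416, 0.00575 and 0.00726. DBP changed by 0.39 in TGFBRi rats against -1.57 in vehicle rats, with a limma adjusted p of 0.0773 for the difference.

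**Figure D5:**
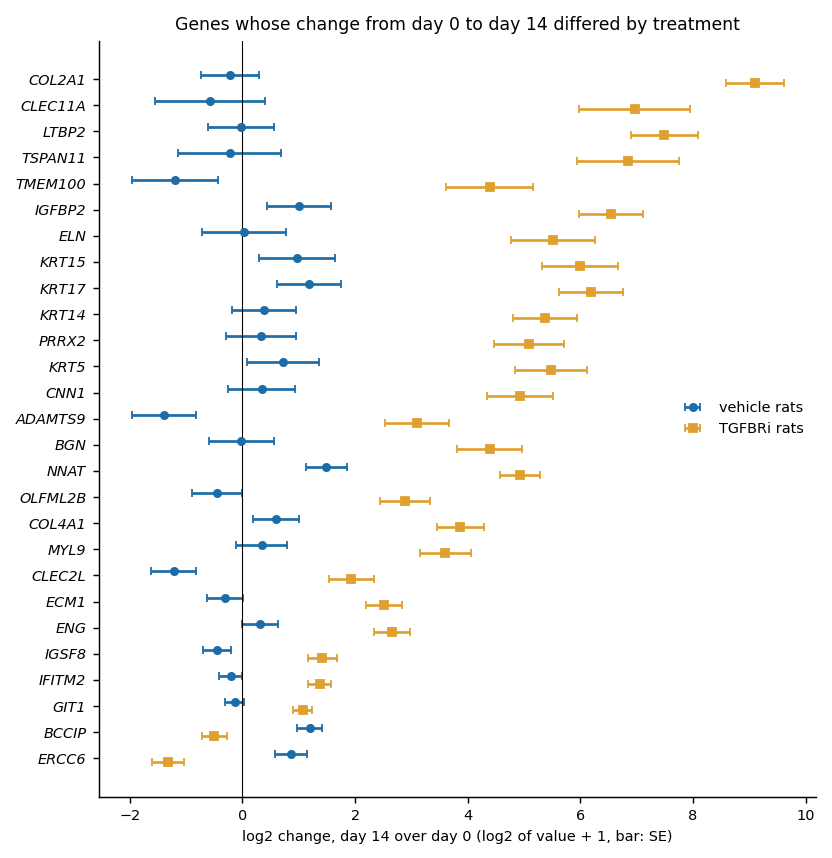
Log2 change from day 0 to day 14 (horizontal axis) in vehicle rats (circles) and TGFBRi rats (squares), 3 rats per group and day, bars giving the SE of the fit over all 18 libraries, for 27 of the 28 genes whose change differed between the arms (vertical axis). For the 25 genes drawn with the lower vehicle change, vehicle values lie between -1.39 and 1.49 and TGFBRi values between 1.07 and 9.10 (COL2A1, with no read at day 0 in that arm, so that its fitted value depends on the value of 1 added before the log), and BCCIP and ERCC6 have opposite signs.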

How the data were processed

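Total RNA of CD45+ cells sorted from mammary glands was made into SMARTer v4 libraries and sequenced on a NextSeq500 with single-end reads. The authors aligned the reads to rn6 with STAR 2.5.1b in 2 passes, counted them on RefSeq genes with htseq-count without regard to strand, kept genes of at least 10 counts and divided each library by a DESeq2 size factor (DESeq2 1.30.1). The deposited values are therefore normalized counts, a signal by gene symbol. Dividing by the smallest step of each library returned whole reads for 100% of the values above 0, at a tolerance of 0.001, which also gave the reads per 1000000 (RPM) of the basal and luminal sorts. Those sorts were scaled separately by the authors and were not tested.

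log2 of the normalized value + 1 was fitted with limma 3.58.1 (R 4.3.3, trended prior, robust variances) over the 18 CD45+ libraries in 6 groups of 3 rats, for 14761 genes whose values reached 10 in sum, with Benjamini-Hochberg adjustment over all genes and a threshold of 0.05. Log2 changes are on this scale, which understates changes of low genes. As differences of mean logs they can also exceed the change of the means where rats of a group differ widely. The SE and p-values rest on the spread between rats of a group, shared over the 18 libraries. The alternatives were edgeR 4.0.16 and DESeq2 1.42.0 on recovered reads, TMM scaling, pseudocounts of 0.5 and 10, filters, fewer libraries, an epithelial covariate and leaving out each rat. The fit was also run on simulated data, and the outcome is not reported here. With 3 rats per group, a gene that was not called is not thereby shown to be unchanged. A TGFBRi library labelled day 7 carries day 9 in its title and was kept as day 7, and the basal and luminal libraries of vehicle day 7 rat 2 are described as from a treated animal although titled controls.

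Genes are named where called with 50 or more reads on average and groups that do not overlap, up to 15 per direction (5 for the single steps), filled by lowest p at a log2 change of at least 1, or as members of a gene list that define it. Called genes below that minimum (CCPG1OS, ART5), CCNO in the second step, the list members named for groups that do not overlap or for their contrast, and the genes set beside the luminal sort were chosen after their values were seen. The samples, comparisons and gene lists were chosen with earlier results of these data known. Some genes that meet these rules are not reported here.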

Additional observations from a re-analysis of the deposited data

Results flagged for a closer look

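The change from day 0 to day 14 differed between vehicle and TGFBRi rats in 28 genes by the test of the difference itself. Named under the rule for vehicle rats were 2 of them. BCCIP changed by 1.19 in vehicle rats and by -0.50 in TGFBRi rats, a difference of 1.69 on the log2 scale (limma adjusted p = 0.0421). NNAT, a small proteolipid of the endoplasmic reticulum, changed by 1.49 in vehicle rats, from 240.6, 113.3 and 159.4 to 511.1, 368.4 and 513.0, and by 4.93 in TGFBRi rats, from a mean of 11.31 to 369, a difference of -3.44 (limma adjusted p = 0.0126). In RPM, NNAT was 3.89 to 34.2 in the CD45+ sort of the vehicle rats and far higher, 234 to 1088, in their basal sort. The part of epithelial cells in its CD45+ values was not tested. Basal epithelial genes, summed, were at 11 to 24 reads per 1000000 in the day 0 TGFBRi libraries and at 252 to 684 in the day 0 vehicle libraries. No gene passed the test of the difference with the epithelial level as a covariate. That covariate is built from basal epithelial genes, 5 of them among the 28, and cannot decide their part in the difference. The groups hold 3 rats each, too few for the search for single outlying rats.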

How the results depend on the processing

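The count of genes called between day 14 and day 0, 19, was 0 with the vehicle libraries only or only the groups compared, 6 with edgeR, 470 with DESeq2, 32 with TMM scaling, 34 with a pseudocount of 10 and 399 with the epithelial covariate, and 1 to 1163 with 1 rat left out. CCNO was the 1 gene called in all 6 of the latter fits. For day 7 against day 0 it was 40 with DESeq2 and 0 to 36 with 1 rat left out, and otherwise 0 except without the pair of libraries named below. For day 14 against day 7, 7 genes were called, 0 with the vehicle libraries only or only the groups compared, 212 with DESeq2, 4 with the covariate, 0 to 1 without a day 7 or day 14 rat and 8 to 21 without a day 0 rat. For the difference between the arms, 28, it was 4 with only the groups compared, 823 with DESeq2, 7 with TMM scaling, 13 with a pseudocount of 10, 47 with the stricter filter, 0 with the covariate and 2 to 598 with 1 rat left out. Lastly, leaving out day 0 rat 1 and day 7 rat 3 together, chosen after seeing the data, gave 1211, 1, 0 and 507 in the order above, and leaving out the TGFBRi library whose title says day 9, also chosen later, gave 5, 0, 4 and 12. Apart from the filters and fewer libraries, which change the genes or samples tested, the cause was not tested. Of the named genes' values under an alternative, 635 stayed on their side of the threshold, 96 passed it, 169 lost it and none changed sign. List medians moved by more than 1 SD between rats in 65 values and by less in 2203. No paired analysis was possible because each day was sampled in different rats and the animal names carry no number shared between days. A gene with no read in a library can lie at up to 3 reads at this depth.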

Other observations

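Further gene groups of the vehicle libraries are given as values. Interleukin and cytokine genes (28 genes) had a median of -0.34, 2 with all day 14 rats above all day 0 rats (6.69% of all genes) and 4 below (7.03%). Of them, IL4 stood at 30.8, 172.9 and 95.4 at day 0 against 6.4, 9.6 and 4.3 and IL5 at 11.1, 67.8 and 10.8 against 0, 0 and 4.3 (log2 changes of -3.44 and -3.62, limma adjusted p of 0.0663 and 0.139, neither called by limma), both with all day 14 rats below all day 0 rats. The type 2 innate lymphoid list had a median of -0.10 over 10 genes, 3 of them below. It shares IL4 and IL5 with the cytokine list, so that counts of the 2 lists can hold the same genes. Chemokine receptor genes had a median of 0.12 over 18 genes, 3 of them with all day 14 rats above all day 0 rats and 1 below, and cytokine receptor genes of -0.49 over 26 genes with none in either direction. Cholesterol synthesis genes had a median of -0.20 over 21 genes and respiratory chain genes of 0.12 over 25. None of these lists held a gene called by limma or edgeR. DESeq2, which called 1.18% of all genes higher and 2.01% lower, called 1 cytokine gene higher and 3 lower, 2 type 2 innate lymphoid genes lower and 1 cholesterol synthesis gene lower. Without day 0 rat 1, when limma called 4.68% of all genes higher and 3.28% lower, 2 cytokine genes were called higher and 3 lower, 2 type 2 innate lymphoid genes lower, 5 chemokine receptor genes higher, 2 cytokine receptor genes higher and 5 lower, 1 cholesterol synthesis gene lower and 2 respiratory chain genes higher.

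The histone gene HIST1H2BH, whose messages are made in S phase, stood at 1843, 2696 and 2209 at day 0, 1918, 2950 and 2550 at day 7, then 1186, 850.8 and 918.8 at day 14 (limma adjusted p = 0.0665 for the second step). KIF3A, a motor subunit of cilia and vesicle transport, stood at 155.5, 210.3 and 357.7, then 165.1, 423.0 and 300.7, then 65.3, 30.6 and 95.2. In both genes every day 14 rat was below all earlier rats, and neither passed the test.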
